A study of Homo sapiens with 27 samples.

Results

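Expression of 10 genes of the retinal pigment epithelium and of the pigment granule, the melanosome, was followed in human embryonic stem cells that differentiated on 3 laminin matrices. The genes were MITF, TYR, TYRP1, DCT, PMEL, OCA2, SLC45A2, RPE65, RLBP1, and BEST1. They were picked by name, partly because TYRP1 had been lower on LN523 than on LN521 at day 32 in these same libraries, so that difference is described here and not tested. All 10 genes were matched by Ensembl identifier, each to 1 of the 44852 genes of the count table.

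Retinal pigment epithelium is a pigmented sheet that lies against the photoreceptors, and it arises from the same optic vesicle as the neural retina. MITF is the transcription factor that drives pigment genes in both pigment epithelium and melanocytes. PMEL forms the fibrils on which melanin is laid down, and TYR, TYRP1, and DCT are the related melanosomal enzymes of melanin synthesis. OCA2 and SLC45A2 are melanosomal membrane transporters. RPE65, the retinoid isomerase, and RLBP1, the retinaldehyde-binding protein, serve the visual cycle, and BEST1 is a chloride channel of the mature pigment epithelium.

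The cells were H1, a human embryonic stem cell line, cultured on recombinant laminin and collected at days 2, 22, and 32. The library titles number these days 0, 20, and 30. Each of the 9 matrix-by-day groups had 3 bulk RNA-seq libraries. All groups carried the H1 genotype with no gene altered, and from day 2 all cultures received CKI-7 and SB431542 in neural induction medium, followed by photoreceptor medium with BDNF, CNTF, retinoic acid, and DAPT. In the paper, LN521 was the sole coating of 1 matrix and was blended into the other two. In the sample labels, LN323 has that role, so each matrix carries only the name of its main laminin below. Each replicate number was also a sequencing lane. Nothing in the sources states that the 3 libraries of a group came from separate cultures, so p-values measure the spread between libraries, which may be technical. In bulk RNA, fewer pigmented cells and less RNA per pigmented cell cannot be told apart.

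The 3 melanin enzyme genes are the members called between matrices at days 22 and 32, and the 250 bases before their RefSeq starts (GRCh38.p14, strand of the gene) are shown with that of RPE65, which was almost silent. Capitals mark CATGTG and TCATGTG, the letters of the E-box and M-box core that MITF is known to bind, and TAATCC, the letters of an OTX2-type site, on either strand. TCATGTG contains CATGTG, so the 2 counts overlap.
TYRP1, chr9:12693135-12693384, plus strand: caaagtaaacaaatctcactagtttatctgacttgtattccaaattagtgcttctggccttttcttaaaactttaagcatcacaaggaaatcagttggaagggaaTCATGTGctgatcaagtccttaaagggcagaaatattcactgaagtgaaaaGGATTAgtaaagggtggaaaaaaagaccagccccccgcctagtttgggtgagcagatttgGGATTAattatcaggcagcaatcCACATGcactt
TYR, chr11:89177625-89177874, plus strand: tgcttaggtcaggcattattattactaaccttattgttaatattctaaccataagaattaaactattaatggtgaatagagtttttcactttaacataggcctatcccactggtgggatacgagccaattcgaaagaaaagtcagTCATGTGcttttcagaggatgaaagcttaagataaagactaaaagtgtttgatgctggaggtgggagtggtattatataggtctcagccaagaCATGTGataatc
DCT, chr13:94479683-94479932, minus strand: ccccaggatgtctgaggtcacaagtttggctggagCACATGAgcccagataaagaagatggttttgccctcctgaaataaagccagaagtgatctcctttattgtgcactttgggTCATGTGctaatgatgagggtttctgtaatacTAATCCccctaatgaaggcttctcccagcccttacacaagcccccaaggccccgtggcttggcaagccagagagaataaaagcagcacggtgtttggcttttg
RPE65, chr1:68449955-68450204, minus strand: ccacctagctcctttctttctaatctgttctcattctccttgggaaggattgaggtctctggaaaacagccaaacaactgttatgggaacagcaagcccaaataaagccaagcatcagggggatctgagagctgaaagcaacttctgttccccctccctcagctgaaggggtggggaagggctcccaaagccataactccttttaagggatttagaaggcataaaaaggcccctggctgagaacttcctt

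Each of the 3 enzyme genes held CATGTG at 2 places in this window, and each held TCATGTG. In TYRP1 the copies lay 144 to 139 and 11 to 6 bases before the start, and in TYR 104 to 99 and 12 to 7. In DCT they lay 215 to 210 and 134 to 129 bases before the start. TYRP1 also held TAATCC at 2 places and DCT at 1. Of 35116 RefSeq promoter windows of this length, 9.42% held CATGTG, 2.52% held TCATGTG, and 5.62% held TAATCC. Promoter entries were found for 7 of the 10 members, in 10 entries, of which 5 held CATGTG. OCA2 and RLBP1 held 1 copy each, whereas RPE65, 3 starts of MITF, and the other start of DCT held none. PMEL, SLC45A2, and BEST1 had no entry. These matches describe letters, not bound sites.

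The libraries held between 25620624 and 47340990 counts (median 39862487). Of the non-zero counts, 68.8% were even, which would occur if each mate of a read pair were counted, so the number of independent fragments may be smaller. The biological coefficient of variation between libraries of a group was 37.4% at day 2, 39.5% at day 22, and 44.4% at day 32. The labels were checked against POU5F1, the pluripotency factor, which was at 2216 to 2597 TPM in every day 2 library. It was at most 22.05 TPM at day 32. PAX6, the eye-field factor, was at most 0.525 TPM at day 2 and at least 107.0 TPM at day 22. A few LN521 libraries stood apart from their group. Replicate 1 of LN521 at day 22 retained POU5F1 at 108.4 TPM, beside 1.84 and 2.11 TPM in the other two, and had 12.3 TPM of the neural crest gene PAX3. Replicate 1 of LN521 at day 32 had POU5F1 at 22.05 TPM and the lowest MITF and PMEL of that day. Replicate 3 of LN521 at day 22 held the highest TYRP1 of all 27 libraries. Called members in comparisons with LN521 at days 22 and 32 are therefore also given without these libraries.

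PMEL was by far the most abundant of the 10 transcripts. In TPM, which corrects for gene length, it made up 66.9% to 98.02% of the members' summed level in each of the 27 libraries. At day 22 the median over 9 libraries was 1047 TPM for PMEL, 118.5 for DCT, 68.1 for TYRP1, and 32.3 for MITF. OCA2 followed at 13.8 TPM, TYR at 4.89, BEST1 at 1.83, SLC45A2 at 1.74, RLBP1 at 0.549, and RPE65 at 0.0696. Over the 9 libraries of day 22 the ranges of most neighbours in this order overlapped, from DCT and TYRP1 (50.8 to 305.5 and 41.0 to 463.5 TPM) to BEST1 and SLC45A2 (1.09 to 2.73 and 1.12 to 5.10 TPM). Those that did not overlap were PMEL and DCT, and TYR and BEST1. The visual cycle members RPE65 and RLBP1 were thus the lowest of the 10.

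**Figure D1:**
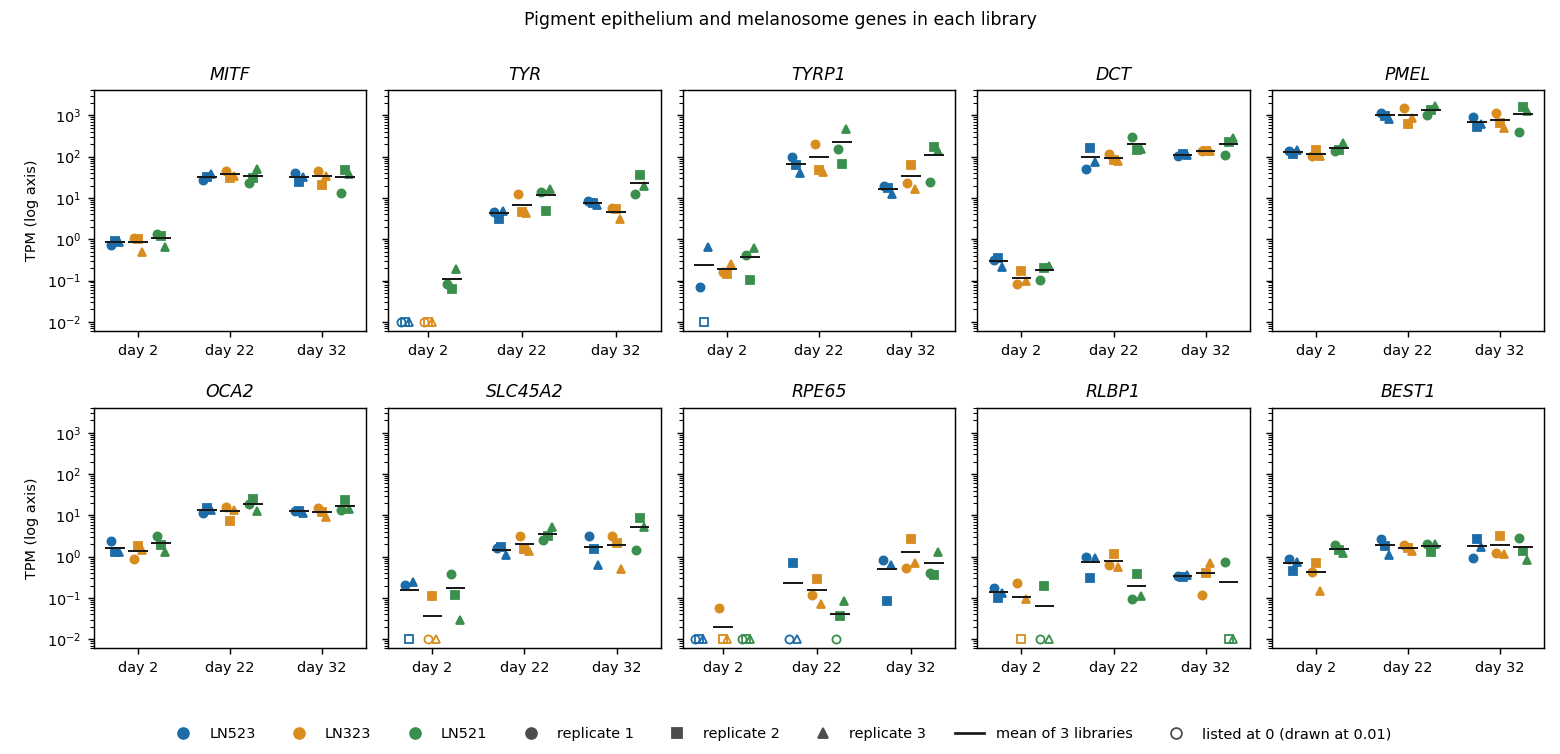
Level of each of the 10 genes in TPM (log axis) in each of the 27 libraries, by matrix and day, with 3 libraries in each group and libraries at 0 drawn as open points at the bottom. MITF, TYR, TYRP1, DCT, PMEL, OCA2, and SLC45A2 sit higher at days 22 and 32 than at day 2, whereas RPE65 and RLBP1 stay at or below 2.68 TPM.

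MITF was low but present at day 2, between 0.493 and 1.33 TPM in all 9 libraries. At day 22 it was 27.8, 32.3, and 37.6 TPM on LN523. On LN323 it was 45.95, 29.97, and 34.9 TPM, and on LN521 23.5, 30.2, and 50.7 TPM. The 3 matrices overlapped fully. At day 32 MITF was 39.3, 24.3, and 32.8 TPM on LN523, 44.4, 20.98, and 34.8 TPM on LN323, and 13.2, 46.4, and 38.3 TPM on LN521. The single low value belonged to replicate 1 of LN521, the library with residual POU5F1.

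PMEL differed from the other members in being well expressed in undifferentiated cells, at 101.5 to 208.8 TPM at day 2. At day 22 it was 1171, 990.7, and 818.7 TPM on LN523. On LN323 it was 1535, 613.8, and 840.4 TPM, and on LN521 1047, 1372, and 1709 TPM. LN521 held the highest library, but the groups overlapped. At day 32 PMEL was 920.5, 524.9, and 631.8 TPM on LN523 and 1148, 643.1, and 485.4 TPM on LN323. On LN521 it was 394.1, 1600, and 1273 TPM, so this matrix held both the lowest and the highest library of the day. A stretch of 2.4% of the exonic bases of PMEL is shared with CDK2 on the opposite strand.

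TYR, the rate-limiting enzyme of melanin synthesis, had 0 counts in all 6 day 2 libraries on LN523 and LN323. On LN521 it was at 0.0837, 0.0628, and 0.189 TPM, from at most 6 counts. At day 22 TYR was 4.65, 3.17, and 4.93 TPM on LN523, 12.1, 4.44, and 4.21 TPM on LN323, and 14.1, 4.89, and 16.5 TPM on LN521. At day 32 it was 8.48, 7.34, and 6.91 TPM on LN523, 5.59, 5.30, and 3.14 TPM on LN323, and 12.5, 35.4, and 20.0 TPM on LN521. At day 32 every LN521 library thus stood above every library of the other matrices.

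TYRP1, which stabilizes TYR and acts later in the pathway, was at most 0.644 TPM at day 2. At day 22 it was 99.3, 61.2, and 41.0 TPM on LN523. On LN323 it was 199.5, 46.4, and 43.5 TPM, and on LN521 151.1, 68.1, and 463.5 TPM. Replicate 3 of LN521 stood far above its group, and the other two LN521 libraries lay within the range of LN323. At day 32 TYRP1 was 19.7, 17.4, and 12.6 TPM on LN523, 22.5, 61.2, and 16.2 TPM on LN323, and 24.2, 175.7, and 137.9 TPM on LN521. The mean levels at day 32 were 16.6 ± 3.63 TPM on LN523, 33.3 ± 24.4 on LN323, and 112.6 ± 78.8 on LN521 (SD, n = 3). All 3 LN523 libraries were below all 3 LN521 libraries, although replicate 1 of LN521 was close to them.

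DCT, the dopachrome tautomerase, was at most 0.344 TPM in each day 2 library. At day 22 it was 50.75, 164.8, and 74.2 TPM on LN523. On LN323 it was 118.5, 83.2, and 78.0 TPM, and on LN521 305.5, 142.9, and 149.2 TPM. LN323 and LN521 did not overlap. At day 32 DCT was tightly grouped on LN523, at 106.2, 117.7, and 110.2 TPM, and on LN323, at 135.2, 140.5, and 138.1 TPM. On LN521 it was spread over 110.8, 228.9, and 278.8 TPM.

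Among the transporters, OCA2 was at 0.8801 to 3.21 TPM at day 2, 7.33 to 25.0 at day 22, and 9.35 to 23.5 at day 32. SLC45A2 was lower, at 1.61, 1.74, and 1.12 TPM on LN523 at day 22 and 2.58, 3.18, and 5.10 TPM on LN521. At day 32 SLC45A2 was 3.09, 1.54, and 0.615 TPM on LN523, 3.22, 2.14, and 0.494 TPM on LN323, and 1.41, 8.86, and 5.17 TPM on LN521. Its groups overlapped at day 32 between all 3 matrices.

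Of the genes that serve the mature pigment epithelium, RPE65 and RLBP1 were near the floor, and BEST1 was low but above it. RPE65 had 0 counts in 8 of 9 libraries at day 2, in 3 of 9 at day 22, and in 0 of 9 at day 32, where it ranged from 0.0823 to 2.68 TPM (2 to 70 counts). The highest value was in replicate 2 of LN323. On LN521 RPE65 was at 0 in the 3 day 2 libraries, and its day 32 mean was 5.91-fold the level that 3 counts per library give. RLBP1 did not exceed 24 counts or 1.13 TPM in any library. BEST1 was present throughout at 0.146 to 3.22 TPM, but FTH1, which lies on the opposite strand, covers 14.6% of its exonic bases. The strand setting of the authors' counting is not given in the sources used here.

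From day 2 to day 22 the melanosome genes rose on every matrix. The regulator and the 6 melanosome members, MITF, TYR, TYRP1, DCT, PMEL, OCA2, and SLC45A2, had an edgeR adjusted p-value under 0.05 and a higher level on LN523, on LN323, and on LN521. On LN523 these were 7 of 10 members, while 11.5% of all genes tested were called higher. On LN323 there were 8 of 10, with BEST1 as the additional gene, against 11.8% of all genes, and on LN521 7 of 10 against 10.8%. The median log2 difference of the 10 members was 3.96, 3.96, and 3.92 on LN523, LN323, and LN521, beside 0.02, 0.02, and −0.02 over all genes. No group of these 7 genes overlapped between day 2 and day 22 on any matrix. The share of all genes without such overlap is not given, so this does not set the 7 genes apart.

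MITF rose by a similar factor everywhere, with a log2 difference of 4.96 ± 0.38 (SE) on LN523, 5.08 ± 0.38 on LN323, and 5.03 ± 0.38 on LN521. DCT and TYRP1 had the largest fitted rises apart from TYR, which started from 0 on LN523 and LN323. DCT rose by 7.96 ± 0.40, 9.33 ± 0.43, and 10.09 ± 0.44 on the same matrices. TYRP1 rose by 8.08 ± 0.78, 8.66 ± 0.79, and 9.15 ± 0.78. At day 2 DCT had at most 28 counts per library and TYRP1 at most 24, so the size of these rises rests on few counts. PMEL, which started from a high level, rose by 2.60 ± 0.32, 2.75 ± 0.32, and 3.04 ± 0.33, and OCA2 by 2.73 ± 0.39, 2.85 ± 0.40, and 3.18 ± 0.40. SLC45A2 rose by 2.96 ± 0.83, 5.34 ± 0.97, and 4.67 ± 0.86, from at most 10 counts per library at day 2. For TYR the rise was 6.56 ± 0.63 on LN521. On LN523 and LN323 the day 22 means of TYR were 32.4-fold and 62.6-fold the level of 3 counts per library, a nominal lower bound for the rise. The largest edgeR adjusted p-value among these calls was 0.00541, for SLC45A2 on LN523. BEST1 rose on LN323 by 1.70 ± 0.50 (edgeR adjusted p = 0.00842). Its log2 difference was 1.06 ± 0.49 on LN523 and 0.27 ± 0.48 on LN521, neither past the threshold. RPE65 and RLBP1 did not pass on any matrix.

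**Figure D2:**
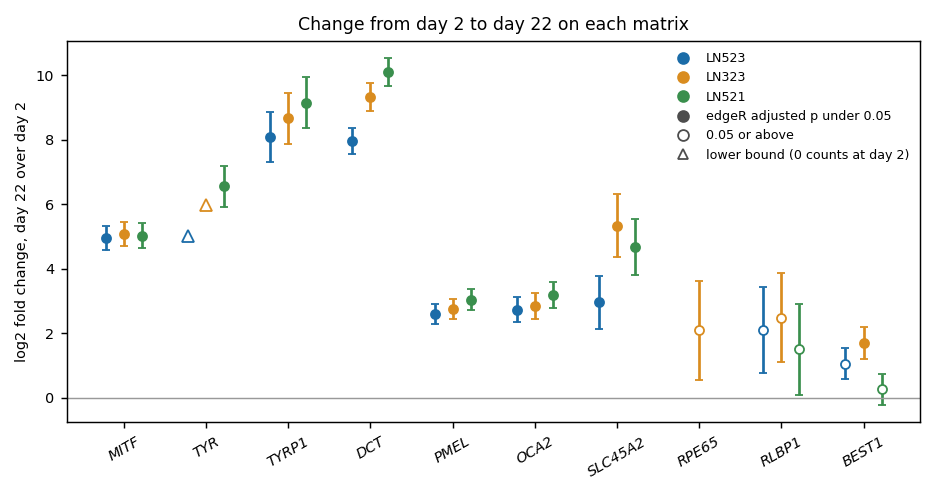
Log2 difference of each member between day 22 and day 2 on each matrix, with bars of 1 standard error from the edgeR fit of 27 libraries. Open triangles are nominal lower bounds for TYR, set against 3 counts per library, on LN523 and LN323, where all day 2 libraries were at 0. A member is not drawn where its day 2 group was otherwise at 0. DCT and TYRP1 lie highest, MITF lies between 4.96 and 5.08, and PMEL and OCA2 lie between 2.60 and 3.18.

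Other genes of the pathway are given by lists over the same interval, with the share of all genes called lower at 10.2% on LN523, 10.9% on LN323, and 8.09% on LN521, beside the shares called higher given above. Of 27 genes of melanosome biogenesis and transport, 11 rose and 4 fell on LN523, 9 and 4 on LN323, and 10 and 4 on LN521. On LN521 TRPM1 rose by 5.91 ± 0.65 on the log2 scale and LYST by 4.38 ± 0.37. MLPH, which tethers melanosomes to their motor, fell by 1.85 on the log2 scale. GPR143, the ocular albinism receptor, was already at 17.9 to 37.6 TPM at day 2 and had a log2 difference of 0.28 ± 0.34 there. Of 12 visual cycle genes, 5, 6, and 4 rose and 3, 3, and 3 fell on LN523, LN323, and LN521. ABCA4 was among those that rose, by 5.35 ± 0.63 on LN521, whereas LRAT, the enzyme that supplies the RPE65 substrate, fell by 4.83 on the log2 scale. Of 14 other pigment epithelium markers, 9, 8, and 8 rose and 1 fell on each matrix. SERPINF1, which encodes the secreted factor PEDF, rose by 2.30 ± 0.23 and KCNJ13, an apical potassium channel, by 4.02 ± 0.64 on LN521. TTR, another secreted marker, was at 0 in all 9 day 2 libraries and at most 1.74 TPM at day 22.

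Of 15 regulators of pigment cell fate, 12 rose and 2 fell on each matrix. TFEC, a relative of MITF, rose by 9.45 ± 0.66 on LN521, PAX6 by 8.81 ± 0.33, and NR2F1 by 9.79 ± 0.39. OTX2 and TFE3 were the 2 that fell, by 1.52 and 0.92 on the log2 scale on LN521. Of 10 neural crest and melanocyte markers, 1, 3, and 1 rose and 4, 4, and 5 fell. FOXD3 fell by 5.82 and EDNRB, the melanoblast endothelin receptor, by 1.98 on the log2 scale on LN521, while TFAP2B rose by 10.35 ± 1.1. MLANA, a melanosome protein of melanocytes and pigment epithelium, stayed between 0.102 and 0.699 TPM at day 22.

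The members rose in cultures that also gained genes of other tissues. All 8 neural retina progenitor markers rose on LN523 and on LN323, and 7 of 8 on LN521, where RAX rose by 7.37 ± 0.50. Of 7 epidermal keratinocyte markers 5, 5, and 4 rose, and of 7 choroid plexus markers 6, 5, and 6 rose on LN523, LN323, and LN521. All 5 pluripotency markers fell on every matrix. Mueller glia markers moved in both directions, with 2, 1, and 2 of 7 higher and 1 of 7 lower on each. Choroid plexus markers summed to 36.9 to 94.5 TPM at day 22, and keratinocyte markers to 30.02 to 151.4 TPM. Their part in the members' levels was not tested.

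At day 2, before neural induction, 1 member was called in 1 of the 3 matrix comparisons. By edgeR 0 of 10 passed for LN523 against LN323 and 0 of 10 for LN523 against LN521, where 0.233% and 0.624% of all genes were called. At an unadjusted p-value under 0.05 there were 0 and 1 members, and DESeq2 and limma called 0 in both. BEST1 was the 1 member of 10 called between LN323 and LN521, against 2.5% of all genes, with a log2 difference of −1.69 ± 0.45 (edgeR adjusted p = 0.0142). Its mean was 0.422 ± 0.273 TPM on LN323 and 1.53 ± 0.343 on LN521 (SD, n = 3), and the groups did not overlap. This call was absent with a stricter filter on low counts.

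At day 22 the members called between matrices were melanin enzymes, and each was higher on LN521 than on the other matrix. Between LN523 and LN521, 3 of 10 members passed by edgeR, against 0.572% of all genes, and all 3 were lower on LN523. TYRP1 had a log2 difference of −1.63 ± 0.28 (edgeR adjusted p = 0.000118), DCT of −1.06 ± 0.21 (0.00146), and TYR of −1.37 ± 0.36 (0.0456). Between LN323 and LN521, 2 of 10 passed, against 0.616% of all genes. TYRP1 had a log2 difference of −1.32 ± 0.28 (edgeR adjusted p = 0.00318) and DCT of −1.05 ± 0.20 (0.000587). SLC45A2, whose groups did not overlap between LN523 and LN521, was at −1.32 and −0.89 and did not pass. RLBP1 was at 2.03 and 1.98, from at most 24 counts per library, and did not pass. MITF was at −0.07 ± 0.18 and 0.16 ± 0.19, and PMEL was at −0.53 ± 0.18 and −0.54 ± 0.19, neither past the threshold. Between LN523 and LN323, 0 of 10 members passed, against 0.013% of all genes, and 0 of 10 had an unadjusted p-value under 0.05 or a call by DESeq2 or limma.

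The day 22 calls for TYRP1 were not larger than the spread between its own libraries. Lane by lane, the log2 difference of TYRP1 between LN523 and LN521 was −0.59, −0.25, and −3.43, a mean of −1.42 with a standard error of 1.01 over the 3 lanes. The groups overlapped. Without replicate 3 of LN521 the edgeR difference was −0.37 for LN523 and −0.08 for LN323, neither called, and without replicate 1 of LN521 it was −2.27 and −2.06, both called. The spread of TYRP1 around the fit at day 22 was 13.3 times the spread that the test used after pooling it with all genes. That of DCT was 8.21 times this pooled spread, whereas that of TYR was 1.58 times. For DCT between LN523 and LN521 the lanes gave −2.57, 0.11, and −0.97, with opposite signs. That difference was −0.66 without replicate 1 of LN521 and −1.14 without replicate 3, both called, but −0.49 without replicate 1 of LN523 (edgeR adjusted p = 0.95). Between LN323 and LN521 the lanes of DCT were closer, at −1.33, −0.82, and −0.85, and the groups did not overlap. Without replicate 1 of LN521 this difference was −0.55 (edgeR adjusted p = 0.0817) and without replicate 3 it was −1.13 and called. For TYR between LN523 and LN521 the lanes gave −1.35, −0.54, and −1.48, all lower on LN523, although the groups overlapped. It was −1.47 without replicate 1 of LN521 and called, and −0.95 without replicate 3 (edgeR adjusted p = 0.66). All of these calls were also lost when replicate 3 of LN523 or any 1 of the 3 LN323 libraries was left out of the fit, and that of TYR without replicate 1 of LN523. When genes with low counts were removed by filterByExpr, or in limma on log2 TPM, 0 genes of the whole table were called in the day 22 matrix comparisons. For LN523 against LN521, 1002 (filterByExpr) and 1729 (limma) genes fell under 0.05 before adjustment, and DESeq2 called 486 genes, TYR the only member among them. For LN323 against LN521, DESeq2 called 626 genes and 0 members. Without lane as a replicate block, 1 gene, not a member, was called for LN523 against LN521 and 0 for LN323 against LN521, with 1110 and 1209 genes under 0.05 before adjustment.

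At day 32 the difference that had led to the choice of these genes was as follows. TYRP1 was at 15.7 ± 3.48 CPM on LN523 and 104.8 ± 73.8 CPM on LN521 (SD, n = 3), a log2 difference of −2.49. Lane by lane it was −0.16, −3.21, and −3.38 on the log2 (CPM + 1) scale, so that replicate 1 of LN521 carried little of it. Without that library the difference was −3.24, and over all libraries left out in turn it ranged from −3.24 to −1.65. Other members in the same contrast, likewise untested, were TYR at −1.49, SLC45A2 at −1.90, DCT at −0.81, PMEL at −0.69, OCA2 at −0.40, and MITF at −0.02. The lanes of MITF had opposite signs, at 1.66, −0.86, and −0.26 on log2 (CPM + 1). BEST1 was at 0.08, RPE65 at −0.29, and RLBP1 at 1.21. The median over the 10 members was −0.54, and 0.0609% of all genes were called in that contrast, 24 genes in all. TYRP1 and TYR were the members whose groups did not overlap in CPM. In TPM OCA2 did not overlap either (11.7 to 13.1 TPM on LN523 and 13.2 to 23.5 on LN521). The share of all genes without overlap is not given, so this is not a result about the members.

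TYR was the member that separated LN323 from LN521 at day 32. It was 3.41 ± 0.897 CPM on LN323 and 16.8 ± 8.69 CPM on LN521 (SD, n = 3), a log2 difference of −2.27 ± 0.38 (edgeR adjusted p = 0.00833), and it was lower on LN323 in all 3 lanes, by −0.96, −2.48, and −2.29 on log2 (CPM + 1). It was 1 of 9 members called, against 0.117% of all genes. TYRP1, not tested here, had a log2 difference of −1.80, DCT of −0.54 ± 0.22, SLC45A2 of −1.84 ± 0.66, and MITF of −0.01 ± 0.34. The lanes of MITF had opposite signs, at 1.75, −1.15, and −0.18. Its spread around the day 32 fit was 3.95 times the pooled spread that the test used. Leaving out replicate 1 of LN521 brought 5 members past the threshold, among 2143 genes called, with TYR at −2.70. The TYR call was lost without replicate 2 of LN521 (−1.90, edgeR adjusted p = 0.196), without replicate 2 of LN323 (−2.15, 0.577), and without replicate 3 of LN323 (−2.08, 0.117). The TYR call held without the replicate block but was lost with the filterByExpr filter and in limma, where 0 genes of the whole table passed and 1359 (filterByExpr) and 2148 (limma) fell under 0.05 before adjustment. It held by DESeq2, which called 794 genes. Between LN523 and LN323, 0 of 9 members passed, against 0% of all genes by edgeR, 823 genes by DESeq2, and 747 genes at an unadjusted p-value under 0.05. DESeq2 and limma called 0 of the 9 members, and 1 had an unadjusted p-value under 0.05. That member was TYR, with a log2 difference of 0.77 ± 0.36 and groups that did not overlap. DCT did not overlap either, at 203.0 to 224.3 CPM on LN523 and 243.7 to 262.1 CPM on LN323. The share of all genes without overlap is not given, so this does not set TYR and DCT apart.

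**Figure D3:**
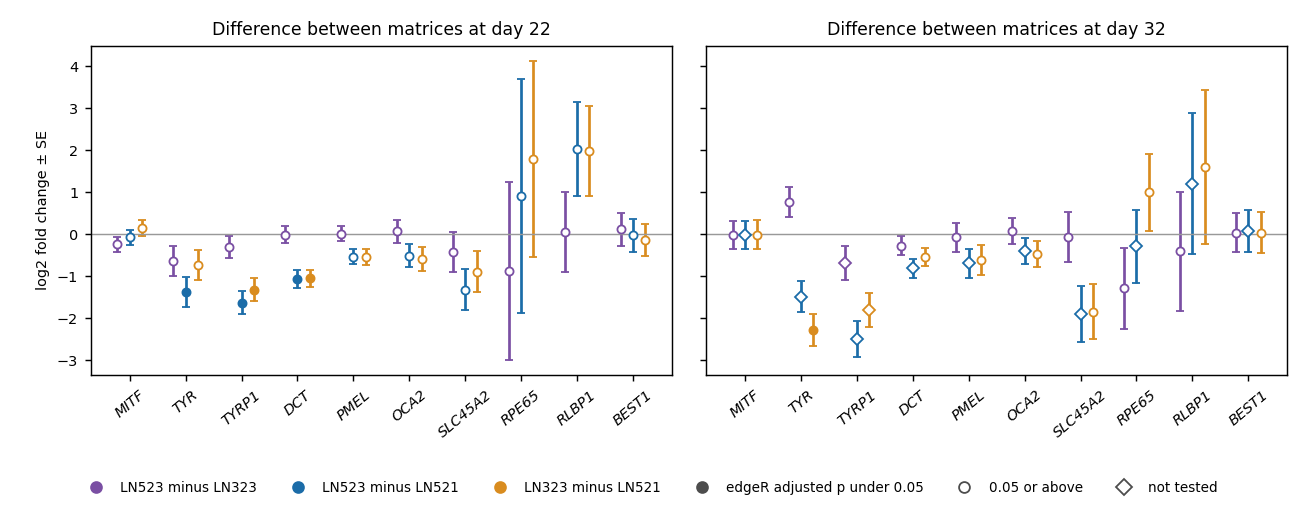
Log2 difference of each member between matrices at days 22 and 32, with bars of 1 standard error from the edgeR fit of the 9 libraries of that day and diamonds where no test was made. TYRP1, TYR, DCT, and SLC45A2 lie below 0 in the comparisons with LN521, and MITF lies near 0. The bars understate the spread between libraries for several members, among them TYRP1, DCT, PMEL, and MITF.

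Dividing by MITF in the same library showed how the enzymes stood against their regulator. At day 32 the ratio of TYR to MITF in TPM was 0.521 to 0.950 on LN521, above the 0.211 to 0.301 on LN523 and the 0.0904 to 0.253 on LN323. Replicate 1 of LN521, low in MITF, had the highest of these ratios. The ratio of TYRP1 to MITF, which repeats the TYRP1 difference that led to the choice of these genes and adds no support to it, was 1.84, 3.78, and 3.60 on LN521 and 0.502, 0.715, and 0.384 on LN523. On LN323 it was 0.507, 2.92, and 0.465. At day 22 the corresponding ranges overlapped, at 2.25 to 9.14 on LN521, 1.09 to 3.57 on LN523, and 1.25 to 4.34 on LN323. The ratio of DCT to TYRP1 was 0.511 to 2.69 on LN523 at day 22 and 5.39 to 8.76 at day 32. On LN323 it was 0.594, 1.80, and 1.79 at day 22 and 6.01, 2.30, and 8.54 at day 32, and on LN521 it was 0.322 to 2.10 at day 22 and 1.30 to 4.57 at day 32. These ratios hold the same TYRP1 values and were not tested.

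**Figure D4:**
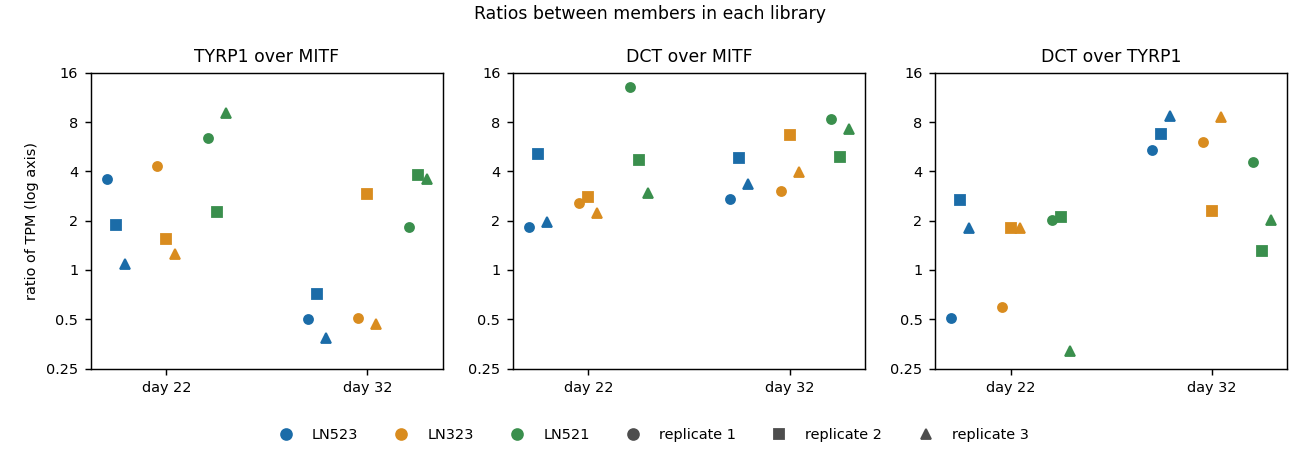
Ratios of TPM between members within each library (log axis) at days 22 and 32, with 1 point per library and 3 libraries per matrix. The ratio of DCT to TYRP1 is above 5 in the 3 LN523 libraries and in 2 of the 3 LN323 libraries at day 32 and below 3 in all 9 of day 22, and the ratios with TYRP1 hold the values that led to the choice of these genes and were not tested.

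From day 22 to day 32 no member passed the test on any matrix. On LN523 0 of 9 members tested passed by edgeR, on LN323 0 of 10, and on LN521 0 of 9, against 0.381%, 0.0424%, and 0.268% of all genes. At an unadjusted p-value under 0.05 there were 0, 2, and 2, and DESeq2 and limma called 0 of them. The TYRP1 values behind these intervals were a log2 difference of −1.94 on LN523 and −0.87 on LN521, neither tested, and −1.49 ± 0.56 on LN323. Single libraries set the LN521 and LN323 values, whereas the LN523 value stayed between −2.28 and −1.48 when 1 library was left out. On LN521 the difference was 0.23 without replicate 3 of day 22, −1.12 without replicate 1 of day 22, and −0.32 without replicate 1 of day 32, and on LN323 it was −0.31 without replicate 1 of day 22. The LN323 value passed only when the 9 libraries of that matrix were fitted alone. DCT was at 0.34 ± 0.28, 0.53 ± 0.28, and 0.04 ± 0.29 on LN523, LN323, and LN521, and MITF at 0.05 ± 0.31, −0.17 ± 0.31, and −0.06 ± 0.31. TYR was at 0.92 ± 0.46, −0.52 ± 0.47, and 1.06 ± 0.47. The negative value of TYR on LN323 was 0.08 without replicate 1 of LN323 at day 22. GPNMB, a PMEL relative, was the 1 of 27 melanosome list genes called in this interval, on LN521, with a rise of 1.83 ± 0.38.

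The change over time was also compared between matrices. From day 2 to day 22, 0 of 10 members differed in their change between LN523 and LN323, LN523 and LN521, or LN323 and LN521, against 0%, 0.00446%, and 0.0201% of all genes. There were 1, 2, and 2 members at an unadjusted p-value under 0.05. DCT had the lowest edgeR adjusted p-value, 0.184, for a change smaller on LN523 than on LN521 by −2.14 ± 0.50 on the log2 scale. The day 2 level of DCT, at most 28 counts per library, enters that value. From day 22 to day 32, 0 of 9 members passed for LN523 against LN323 and 0 of 9 for LN323 against LN521, where 0% of all genes passed. There 1 and 1 members, and 901 and 1540 of all genes, had an unadjusted p-value under 0.05. DESeq2 and limma called 0 members in all 5 of these comparisons.

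Within the 18 libraries of days 22 and 32, deviations from the 6 group means showed which members varied together. The points share libraries, depth, and lanes, and the correlations are descriptions. Removal of the 6 group means leaves fewer than 18 free values. Replicate 1 of LN521 at day 32 was the lowest of its group in MITF, PMEL, SLC45A2, and PAX6 at once. The correlations were not computed without that library. PMEL followed SLC45A2 (r = 0.886, n = 18) and MITF (r = 0.826), and TYR followed TYRP1 (r = 0.837). TYRP1 with SLC45A2 gave 0.739 and TYRP1 with MITF 0.505. DCT was less like these members, with r between 0.309 and 0.368 for every member but RLBP1 and BEST1. OCA2 was lower still with TYRP1 (0.104) and TYR (0.208), but higher with PMEL (0.536) and SLC45A2 (0.443). RLBP1 ran opposite to the melanosome genes, with r from −0.72 for DCT to −0.501 for TYR, but from at most 24 counts per library. BEST1 ran opposite to MITF (r = −0.702) and with PAX3 (r = 0.686). PAX6 followed PMEL (r = 0.886) and MITF (r = 0.777).

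**Figure D5:**
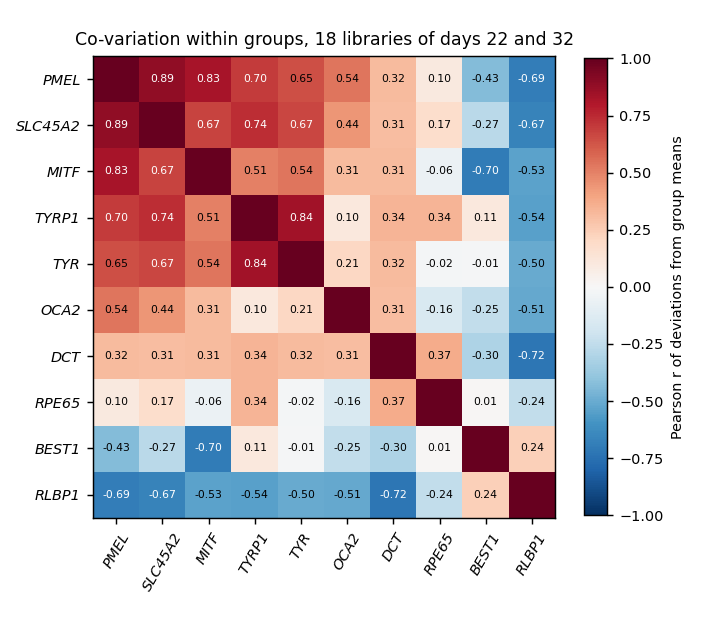
Pearson correlation between members over the 18 libraries of days 22 and 32, after the mean of each of the 6 matrix-by-day groups was removed from log2 (CPM + 1). The strongest pairs are PMEL with SLC45A2 (0.886), TYR with TYRP1 (0.837), and MITF with PMEL (0.826), and RLBP1 is negative with MITF and all 6 melanosome genes.

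Over the 16021 genes with a mean of at least 1 CPM, those whose deviations were most like TYRP1 were DAB2 (r = 0.903), LIFR-AS1 (0.881), CRIM1-DT (0.877), ZNF484 (0.876), and RASSF8 (0.876). Those most like MITF were ZNF844 (r = 0.955), BDH2 (0.947), MYO5B (0.940), LINC00938 (0.925), and MAF (0.920). Those most like PMEL were ARHGEF3 (r = 0.969), GPC6 (0.940), CD74 (0.930), APOE (0.930), and ABCC6P1 (0.927). RPE65 and RLBP1 had a mean below 1 CPM and could not be listed. None of the remaining members was among these 15 genes.

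OTX2, a listed regulator of pigment cell fate, and markers of other cells moved with several of these comparisons. At day 22 OTX2 was lower on LN523 than on LN521 by −1.24 ± 0.23 and lower on LN323 by −1.38 ± 0.23 (edgeR adjusted p = 0.000708 and 3.96e-05). The neural crest genes PAX3 and TFAP2B were lower on LN523 by −1.96 ± 0.47 and −1.50 ± 0.31. None of these day 22 differences was called with filterByExpr or in limma. KIT, of the same list, had the higher mean on LN523, at 71.5 ± 46.1 TPM against 52.5 ± 7.86 on LN521 (SD, n = 3), with overlapping groups. The number of list genes in each direction is not given. PAX3 on LN521 was 12.3, 1.33, and 1.65 TPM, so replicate 1 carried most of its mean. The summed level of the 10 neural crest and melanocyte markers at day 22 was 118.0 to 147.9 TPM on LN523, 93.7 to 117.4 on LN323, and 101.6 to 180.1 on LN521, so that LN521 overlapped both other matrices while LN523 and LN323 did not overlap. At day 32 it was 83.9 to 122.5, 86.7 to 145.4, and 80.0 to 114.9 TPM. The summed level of the 7 keratinocyte markers at day 32 was 96.4 to 690.7 TPM on LN523, 191.9 to 792.1 on LN323, and 323.4 to 737.9 on LN521. That of the 8 neural retina progenitor markers was 1984 to 10260, 1958 to 9915, and 2477 to 6005 TPM. KIT, a melanoblast receptor that H1 cells also carried at day 2 (23.9 to 42.7 TPM), was at 9.83 to 50.7 TPM at day 32. The part of these cell types in the members' differences was not tested. SOX10 was not analysed here.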

How the data were processed

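Bulk RNA-seq libraries of H1 cells on 3 laminin matrices at 3 days were used, 27 in all. The authors prepared stranded total RNA libraries with removal of ribosomal RNA, sequenced 150 bp read pairs, aligned them to GRCh38 (Ensembl 79) with STAR 2.5.2b, quantified genes with featureCounts 1.5.1, and removed rRNA and mitochondrial genes. The submitters' processing notes also name cutadapt. The deposited values were rounded counts per gene without normalization, and TPM made by the authors from the same counts. A sample sheet was not used. Genes were named by GENCODE 44.

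The members and the 10 gene lists were chosen with earlier results of these data known, and the lists support no claim. From the lists, a few defining markers were named throughout, and in each comparison up to 3 rises and 3 falls past the threshold with a mean of at least 1 CPM. Of 113 list genes, 112 were found.

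Matrices were compared within each day by the quasi-likelihood test of edgeR 4.0.16 (R 4.3.3) (TMM normalization; genes summing to more than 1 count), and days and interactions in a fit of all 27 libraries. Sequencing lane, which equals the replicate number and which the authors also used as a covariate, was a replicate block. Same-lane libraries deviated together between LN523 and LN323 at day 22 (mean r = 0.617) but not in every pair (day 2, mean r = −0.397). With LN521 the mean r was 0.193 for LN523 and 0.134 for LN323 at day 22, and 0.173 and 0.013 at day 32. Lane 1 was negative in these pairs, from −0.309 to −0.167, so lane pairing was weak in the comparisons with LN521. P-values were adjusted by Benjamini-Hochberg with a threshold of 0.05. Standard errors are the log2 difference over the square root of F. CPM are TMM-normalized. Interval floors of 3 counts cover counting error only. If each mate was counted, 3 counts hold fewer independent fragments, and the bounds are weaker. The tests were checked on simulated data. Alternatives were RLE normalization, filterByExpr, no block, DESeq2 1.42.0, limma 3.58.1 on log2 (TPM + 1), other sets of libraries in the fit, and leaving out each library. Motifs were sought in RefSeq promoter windows. A few list genes are not reported here by name.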

Additional observations from a re-analysis of the deposited data

How the results depend on the processing

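The rise of the melanosome genes from day 2 to day 22 was called under every alternative for 7 members on LN521. On LN523 limma lost SLC45A2 and the fit without a replicate block added RPE65, and on LN323 limma called RLBP1 in place of BEST1. Leaving out 1 library gave 6 to 8 calls on LN523 and 7 to 8 on LN323. The matrix comparisons were not stable. BEST1 between LN323 and LN521 at day 2 gave 0 members with the filterByExpr filter, in limma, and with all 27 libraries in the fit. The 3 members called between LN523 and LN521 at day 22 became 0 with filterByExpr, without the replicate block, in limma, and with all 27 libraries, and 1 by DESeq2. The 2 called between LN323 and LN521 at day 22 became 0 under all 5, while both were called with RLE normalization. The 1 called between LN323 and LN521 at day 32 became 0 with filterByExpr and in limma. TYRP1 between day 32 and day 22 on LN323 was called, 1 member, in a fit of only its 9 libraries.

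Leaving out 1 library at a time gave 0 to 1 members for LN323 against LN521 at day 2, 0 to 1, 0 to 4, and 0 to 2 for LN523 against LN323, LN523 against LN521, and LN323 against LN521 at day 22, and 0 to 5 for LN323 against LN521 at day 32. For the change from day 2 to day 22 on LN523 against LN521 it gave 0 to 1.

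Other than for the filter, the cause of these changes was not tested. The filter changed the spread that the test used. Before it, low-count genes set a prior of 87.7 degrees of freedom at day 22, against 4.58 after it. The mean of PMEL on LN523 at day 2 was 140.1 CPM by total count instead of 153.8 with TMM. Of the 5 genes most like TYRP1, 3 remained on log2 (TPM + 1). The log2 difference of DPPA4, day 32 against day 22 on LN521, ranged from −3.64 to 0.31 when 1 library was left out, and turned to 0.31 without replicate 1 of LN521 at day 22. Depth limits RPE65, RLBP1, TYR, TYRP1, DCT, and SLC45A2 at day 2, where a few counts decide the value.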
